A study of Mus musculus with 17 samples.

Results

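The genes described here are 51 components of Wnt signalling, chosen by name from the 26556 genes counted in astrocytes of the mouse thalamus and cortex, and all 51 were present in the counts. They comprise 10 frizzled receptors, 5 co-receptors, 2 genes of ligand release, 7 ligands, 8 extracellular antagonists, 5 genes of receptor turnover, 10 genes of signal transduction and 4 nuclear effectors. The rule for membership was a list of gene symbols, with no cut-off on a measured value. This list and the other gene lists were drawn up with earlier results of these data known. Their shares of called genes, set beside those of all genes, are therefore descriptive and not from a list made blind to the data. The question was which parts of the pathway differ between thalamic and cortical astrocytes, and among astrocytes of different thalamic nuclei.

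Astrocytes were sorted by FACS from *Gfap*::GFP mice at postnatal day 7 (P7), given as FVB in the labels and as an FVB/N-Tg background in the study's methods, and their RNA was sequenced in 17 libraries. There were 4 libraries of the cortex, dissected from the somatosensory area (S1), and 13 of the thalamus: 5 of the dorsolateral geniculate nucleus (dLG, visual), 4 of the ventral posteromedial nucleus (VPM, somatosensory) and 4 of the ventral part of the medial geniculate nucleus (MGv, auditory). Each library held cells of 4 pooled brains, all from mice that carried the same transgene, and no treatment is named. GFP was driven by the *Gfap* promoter, so the sort selected cells with activity of that promoter. Replicates are named by the letters a to e of the library names.

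Wnt ligands are lipid-modified proteins that bind frizzled receptors together with a co-receptor. In the canonical branch, binding of a ligand to frizzled and *Lrp5* or *Lrp6* stops the destruction complex (Axin, *Apc* and *Gsk3b*) from degrading β-catenin, which then acts with TCF/LEF proteins on target genes, several of which are inhibitors of the pathway itself. Other branches run through Ror and *Ryk* co-receptors, and secreted antagonists capture ligands or cleave them outside the cell. In the developing thalamus, Wnt signals and the factors *Tcf7l2* and *Lef1* are known for their part in patterning and in the identity of thalamic neurons.

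The libraries held 18213687 to 50366363 counts assigned to genes, so 3 counts were worth 0.0596 to 0.165 counts per 1000000 counts (CPM), and lower levels were not measurable (a limit of counting error only). The 8 astrocyte markers summed to 11314 to 12271 CPM in the cortex and to 4943 to 12474 CPM in the thalamus, and none was at 0 in any group. *Gfap* itself lay at 450.0 to 537 CPM in the cortex, 78.2 to 1308 in the dLG, 36.1 to 5519 in the MGv and 8.98 to 19.2 in the VPM. The 8 markers of the oligodendrocyte lineage were abundant in all groups (6661 to 8077 CPM in the cortex and 6149 to 11270 in the thalamus), and 10 neuronal markers summed to 1099 to 1367 CPM in the cortex and 690 to 2162 in the thalamus. Astrocyte markers were thus present in every group, with transcripts of marker genes of other cell types beside them. Bulk counts do not show which cells these transcripts came from. In the cortex the astrocyte sum was above the oligodendrocyte sum. In every thalamic library but MGv replicate c the oligodendrocyte sum was the larger (11270 against 4943 CPM in VPM replicate a). By the number of genes detected, dLG replicate c stood apart, with 17749 genes against 21052 to 23365 in the other 16 libraries. MGv replicate c had the highest sum of astrocyte markers, 12474 CPM, against at most 6971 CPM in the other thalamic libraries. This sum includes *Gfap*, which reached 5519 CPM within the MGv. In bulk samples of sorted cells, a lower value from fewer cells of a type and one from less RNA per cell cannot be told apart.

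Between thalamus and cortex, 10 of the 51 Wnt genes were higher in the thalamus and 8 were lower (edgeR quasi-likelihood test, adjusted p under 0.1 over 17856 genes). Of all genes tested, 5.45% were called higher and 5.93% lower, against 19.6% and 15.7% of the Wnt genes. The Wnt genes were chosen with earlier results known and all 51 passed the filter on low counts, so these shares test no enrichment. The log2 fold change (log2FC, thalamus over cortex) had a median of -0.04 over the Wnt genes and 0.02 over all genes. The genes called higher were the receptors *Fzd5*, *Fzd9* and *Fzd10*, the co-receptor *Ror2*, the ligand carrier *Wls*, the ligands *Wnt3* and *Wnt5a*, the antagonists *Sfrp2* and *Wif1*, and the effector *Tcf7l2*. Those called lower were the receptors *Fzd1*, *Fzd4* and *Fzd8*, the ligand *Wnt7a*, and the antagonists *Dkk3*, *Sfrp1*, *Sfrp5* and *Notum*. In 8 genes every thalamic library was above every cortical one, a pattern found in 1.67% of all genes, and in 5 genes every thalamic library was below, against 3.09% of all genes. Without cortex replicate d, 4 Wnt genes were called lower, and the calls of *Fzd1*, *Fzd4*, *Fzd8* and *Wnt7a* were lost. Leaving out dLG replicate c gave 10 genes higher and 11 lower, and leaving out MGv replicate c gave 10 and 7.

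**Figure D1:**
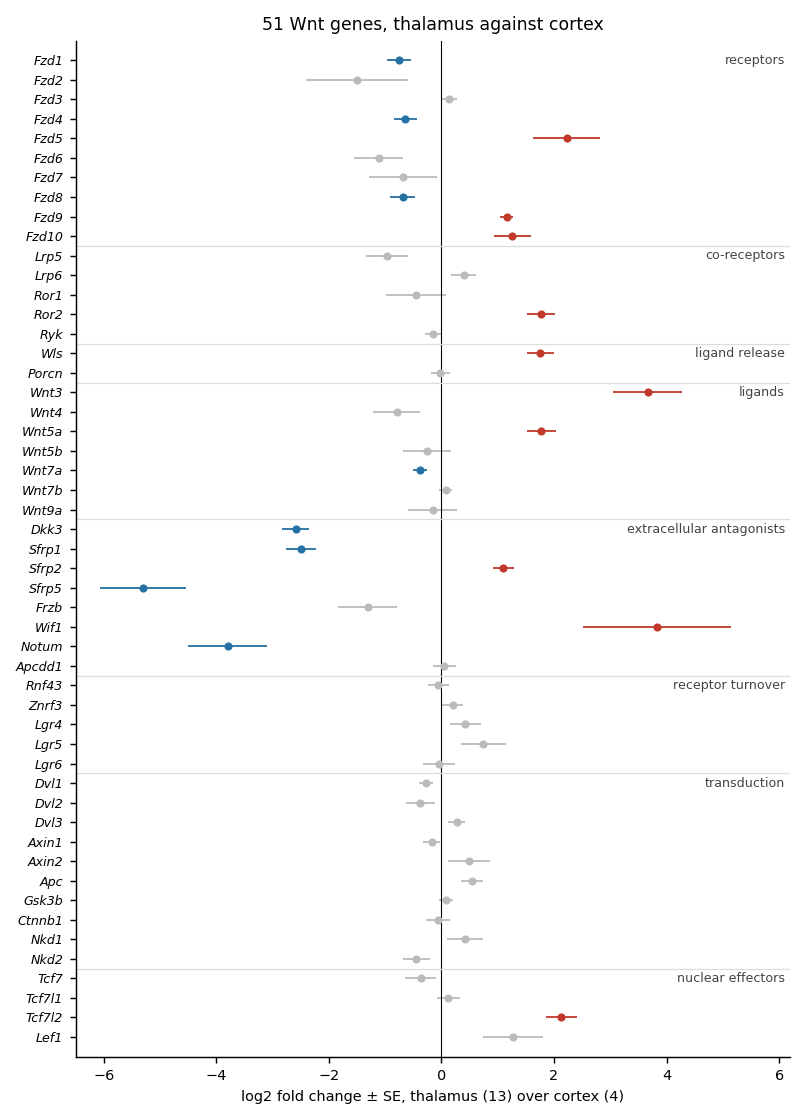
Log2 fold change with its standard error (SE) of each of the 51 Wnt genes, thalamus (13 libraries) over cortex (4 libraries), ordered by role from receptors at the top to nuclear effectors at the bottom. Red points were called higher in the thalamus (10 genes), blue points lower (8 genes) and grey points were not called; the antagonists run from -5.30 for *Sfrp5* to 3.83 for *Wif1*.

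Among the receptors, *Fzd9* had the lowest adjusted p between the regions. Its levels were 59.9, 60.4, 70.4 and 79.9 CPM in the cortex, 151, 163, 154, 152 and 129 in the dLG, 141, 149, 174 and 132 for VPM and 128, 191, 159 and 141 for MGv. All 13 thalamic libraries lay above the 4 cortical ones, and the nuclei overlapped each other. The log2FC was 1.16 ± 0.12 (SE; adjusted p = 1.77e-06). *Fzd10*, a receptor of the same family, lay at 39.8, 35.5, 49.0 and 47.0 CPM in the cortex, 99.0, 163, 146, 135 and 198 in the dLG, 74.6, 98.3, 107 and 89.5 for VPM and 54.9, 57.3, 50.6 and 55.9 for MGv. It was higher in the thalamus (log2FC 1.26 ± 0.33, adjusted p = 0.0203), with levels in MGv just above those of the cortex and no overlap. The third receptor called higher, *Fzd5*, was scarce, at 0.145 to 0.561 CPM in the cortex and 0.450 to 2.57 in the thalamus, and 17.8% of its exonic sequence overlaps another gene.

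The receptors called lower in the thalamus had smaller changes. *Fzd1*, *Fzd4* and *Fzd8* had log2FC between -0.76 and -0.64, and thalamic and cortical libraries overlapped for each of them. The call of *Fzd4* was also lost without cortex replicate c, and that of *Fzd8* without any one of 5 libraries. A pair of receptors differed among the thalamic nuclei instead. *Fzd2* lay at 60.6, 75.8, 78.7 and 67.0 CPM in the cortex, 1.54, 2.39, 0.756, 1.69 and 4.99 in the dLG, 6.21, 4.68, 9.21 and 5.02 for VPM and 50.5, 119.5, 57.3 and 60.6 for MGv. The MGv overlapped the cortex while the dLG and VPM were far below both, and the regional log2FC of -1.50 ± 0.90 did not pass the test (adjusted p = 0.367). *Fzd7* was likewise lower in the dLG and VPM than in the cortex and MGv, with 19.8, 16.2, 17.2 and 23.3 CPM in the cortex, 7.30, 5.78, 0.850, 10.6 and 3.13 in the dLG, 6.40, 6.30, 5.95 and 3.05 for VPM and 22.7, 15.2, 42.1 and 25.9 for MGv. The remaining receptors, *Fzd3* and *Fzd6*, were not called between regions by edgeR, and DESeq2 called *Fzd6* lower.

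Of the co-receptors, *Ror2*, a receptor tyrosine kinase that binds the *Wnt5a* protein, was the one called. Its levels were 4.53, 6.73, 6.73 and 8.35 CPM in the cortex, 12.6, 23.7, 16.6, 18.7 and 21.5 in the dLG, 18.7, 19.5, 22.2 and 18.9 for VPM and 21.2, 33.6, 32.0 and 30.9 for MGv, without overlap between the regions. The log2FC was 1.76 ± 0.25 (adjusted p = 7.35e-05). *Lrp5*, *Lrp6*, *Ror1* and *Ryk* were not called by edgeR, while DESeq2 called *Lrp5* lower, with log2FC from -0.97 for *Lrp5* to 0.40 for *Lrp6*. *Wls*, the carrier that brings lipid-modified Wnt proteins to the cell surface, lay at 45.8, 59.7, 45.8 and 55.7 CPM in the cortex, 125, 129, 132, 179 and 99.9 in the dLG, 163, 152, 178 and 160.3 for VPM and 218, 190.4, 312 and 231 for MGv. Again the regions did not overlap (log2FC 1.75 ± 0.24, adjusted p = 5.01e-05). *Porcn*, the enzyme that attaches the lipid, had a log2FC of -0.02 ± 0.16 and was not called.

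Of the 8 genes higher in every thalamic library, the ligand *Wnt3* had the largest log2FC. It is a canonical ligand, encoded on the forward strand at chr11:103774150-103817957 (GRCm38), and lay at 2.12, 4.23, 1.78 and 3.09 CPM in the cortex, 51.4, 58.2, 71.0, 47.1 and 71.4 in the dLG, 28.4, 29.4, 29.3 and 25.0 for VPM and 8.94, 18.1, 9.45 and 10.8 for MGv. The groups ran from dLG through VPM and MGv to cortex, and no neighbours in that order overlapped. The regional log2FC was 3.66 ± 0.61 (adjusted p = 0.000477). *Wnt5a*, the ligand of *Ror2*, lay at 14.1, 15.5, 17.9 and 17.03 CPM in the cortex, 67.3, 83.6, 69.2, 70.6 and 70.9 in the dLG, 44.3, 51.3, 60.7 and 47.5 for VPM and 23.2, 39.1, 51.9 and 36.8 for MGv. It was higher in every thalamic library (log2FC 1.77 ± 0.26, adjusted p = 0.000116), and its level in VPM and MGv overlapped. *Wnt7a* was slightly lower in the thalamus (log2FC -0.38 ± 0.13, adjusted p = 0.0783), a call lost without any one of 7 libraries, cortex replicates b, c and d among them. *Wnt4*, *Wnt5b*, *Wnt7b* and *Wnt9a* were not called between regions.

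The extracellular antagonists had the lowest median log2FC of the roles (-1.90), with 4 of 8 called lower and 2 higher. *Dkk3*, a divergent member of the Dickkopf family encoded at chr7:112116017-112159057, lay at 385, 399, 408 and 384 CPM in the cortex, 73.8, 103, 78.1, 107 and 64.2 in the dLG, 35.3, 35.0, 41.7 and 41.2 for VPM and 49.5, 62.2, 103 and 56.8 for MGv. Its log2FC was -2.59 ± 0.24 and its adjusted p, 3.60e-07, was the lowest among the Wnt genes. *Sfrp1*, a secreted frizzled-related protein that captures ligands, lay at 132, 165, 129.5 and 168 CPM in the cortex, 15.1, 12.1, 15.9, 22.8 and 12.2 in the dLG, 33.6, 19.8, 31.3 and 26.7 for VPM and 35.0, 50.2, 34.0 and 35.3 for MGv. It also was lower in all thalamic libraries (log2FC -2.49 ± 0.27, adjusted p = 2.66e-06).

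A pair of antagonists was present in the cortex and close to the limit of measurement in the thalamus. *Sfrp5*, of the same family as *Sfrp1*, lay at 13.0, 15.5, 21.2 and 17.8 CPM in the cortex, 0, 0, 0, 0.249 and 0.706 in the dLG, 0.0477, 0, 0.150 and 0.0985 for VPM and 0.337, 1.92, 1.23 and 0.770 for MGv. The VPM libraries held at most 3 counts, so the cortical mean was at least 114-fold higher than there (against a floor of 3 counts per library), and over the whole thalamus the log2FC was -5.30 ± 0.76 (adjusted p = 9.63e-05). *Notum*, a secreted enzyme that removes the lipid from Wnt proteins, lay at 5.42, 4.03, 9.89 and 6.90 CPM in the cortex, 0.935, 1.05, 1.37, 0.249 and 0 in the dLG, 0.143, 0.167, 0 and 0 for VPM and 0.433, 0.414, 0.807 and 0.453 for MGv. The cortical mean was at least 44.4-fold above the VPM, and the regional log2FC was -3.80 ± 0.70 (adjusted p = 0.00130). The kit did not mark strand, and 38.1% of the exonic sequence of *Notum* overlaps other genes, so reads of these cannot be told apart.

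*Sfrp2*, a further secreted frizzled-related protein, was higher in the thalamus. It lay at 19.6, 26.0, 18.8 and 23.4 CPM in the cortex, 38.2, 47.6, 27.4, 63.3 and 39.9 in the dLG, 64.6, 39.7, 58.8 and 53.9 for VPM and 42.8, 38.9, 48.9 and 47.8 for MGv. All thalamic libraries were above the cortical ones (log2FC 1.10 ± 0.19, adjusted p = 0.000733), and 16.1% of its exonic sequence overlaps another gene. *Wif1*, an inhibitor that binds ligands directly, was called higher in the thalamus (log2FC 3.83 ± 1.31, adjusted p = 0.0830). It lay at 2.55, 6.68, 88.1 and 18.6 CPM in MGv replicates a to d, at no more than 6.02 in the dLG and VPM and at 0.145 to 1.48 in the cortex. The call was lost without MGv replicate d and without any one of the cortical libraries (adjusted p 0.108 to 0.237), and without MGv replicate c the log2FC was 2.63 (adjusted p = 0.0773). *Frzb* was not called, with a log2FC of -1.31 ± 0.52, although its thalamic libraries all lay below the cortical ones. *Apcdd1*, a membrane-bound inhibitor, had a log2FC of 0.05 ± 0.21.

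Of the 15 genes of receptor turnover and signal transduction 0 were called between thalamus and cortex by edgeR, while 2 had an unadjusted p under 0.05 and DESeq2 called 1, *Apc*, higher. *Rnf43* and *Znrf3*, ligases that remove frizzled receptors, had log2FC of -0.05 ± 0.19 and 0.20 ± 0.19, and *Lgr4*, *Lgr5* and *Lgr6*, the receptors of R-spondins, ran from -0.04 to 0.74. *Ctnnb1*, which encodes β-catenin, had a log2FC of -0.06 ± 0.21, and *Gsk3b*, the kinase that marks it for removal, one of 0.08 ± 0.13. A p that misses the threshold does not show that these levels were equal. *Axin2*, a scaffold of the destruction complex that is commonly read as a target of canonical signalling, lay at 13.1, 9.14, 17.8 and 16.6 CPM in the cortex, 20.7, 31.0, 35.0, 18.9 and 38.1 in the dLG, 8.55, 11.1, 7.80 and 8.57 for VPM and 16.8, 24.0, 18.1 and 18.8 for MGv. Its regional log2FC was 0.48 ± 0.37 (adjusted p = 0.498), and the mean of the cortex lay between those of the dLG and the VPM. Of the 15 textbook feedback targets (*Axin2*, *Nkd1*, *Nkd2*, *Lef1*, *Tcf7*, *Rnf43*, *Znrf3*, *Notum*, *Apcdd1*, *Wif1*, *Lgr5*, *Sp5*, *Tnfrsf19*, *Ccnd1* and *Myc*), the median log2FC was 0.05. In the thalamus 1 was higher (6.67%, against 5.45% of all genes) and 2 were lower (13.3%, against 5.93%). These were *Wif1*, higher, and *Notum* and *Tnfrsf19*, lower (*Tnfrsf19* log2FC -1.18 ± 0.15, adjusted p = 2.63e-05), named after their values were seen.

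Among the nuclear effectors *Tcf7l2* was called. It is encoded at chr19:55741820-55933654 and lay at 80.8, 76.6, 70.9 and 76.7 CPM in the cortex, 281, 345, 434, 324.3 and 314 in the dLG, 256, 190.3, 236 and 225 for VPM and 654, 283, 276 and 518 for MGv. The log2FC was 2.13 ± 0.28 (adjusted p = 3.02e-05), with all thalamic libraries above the cortical ones. *Lef1*, encoded at chr3:131110471-131224356, lay at 12.8, 11.99, 11.6 and 12.7 CPM in the cortex, 43.6, 58.2, 42.6, 58.8 and 50.0 in the dLG, 20.4, 9.87, 10.6 and 21.03 for VPM and 38.9, 5.90, 6.503 and 18.9 for MGv. The dLG was above every other library, the VPM and MGv reached below the cortex, and the regional log2FC of 1.27 ± 0.54 did not pass the test (adjusted p = 0.176). *Tcf7* and *Tcf7l1* had log2FC of -0.37 ± 0.28 and 0.12 ± 0.20 and were not called.

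Developing thalamic neurons also express *Tcf7l2* and *Lef1*, and cells of the oligodendrocyte lineage express *Tcf7l2*, so their levels were set beside markers of these cells. Within the MGv, replicates a and d had neuronal marker sums of 2162 and 1807 CPM and *Lef1* at 38.9 and 18.9 CPM, while b and c had sums of 814 and 690 CPM and *Lef1* at 5.90 and 6.503. *Tcf7l2* followed the same split in the MGv, with 654 and 518 CPM in a and d against 283 and 276 in b and c. In the VPM, replicates a and d had sums of 1497 and 1902 CPM and *Lef1* above 20, and b and c had sums of 849 and 1184 CPM and *Lef1* at 9.87 and 10.6. *Tcf7l2* did not follow that split in the VPM, with 256 and 225 CPM in a and d and 190.3 and 236 in b and c. Nor did *Lef1* follow the sums in the dLG. Replicate d had the lowest sum there, 1417 CPM, and *Lef1* at 58.8, while b and c had sums of 1897 and 1773 CPM and *Lef1* at 58.2 and 42.6. Of the 10 neuronal markers, 3 were higher in the thalamus than in the cortex (*Nefm*, *Nefl* and *Slc17a6*), 1 was lower (*Rbfox3*) and none was at 0 in any group. With the neuronal marker level as a covariate, chosen after the values were seen, the regional log2FC of *Tcf7l2* was 1.95 (adjusted p = 1.43e-05) and that of *Lef1* 0.56 (adjusted p = 0.444). Of the 8 oligodendrocyte markers 0 were called between regions by edgeR, 0 by DESeq2 and 0 at an unadjusted p under 0.05, and their part in the result was not tested.

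**Figure D2:**
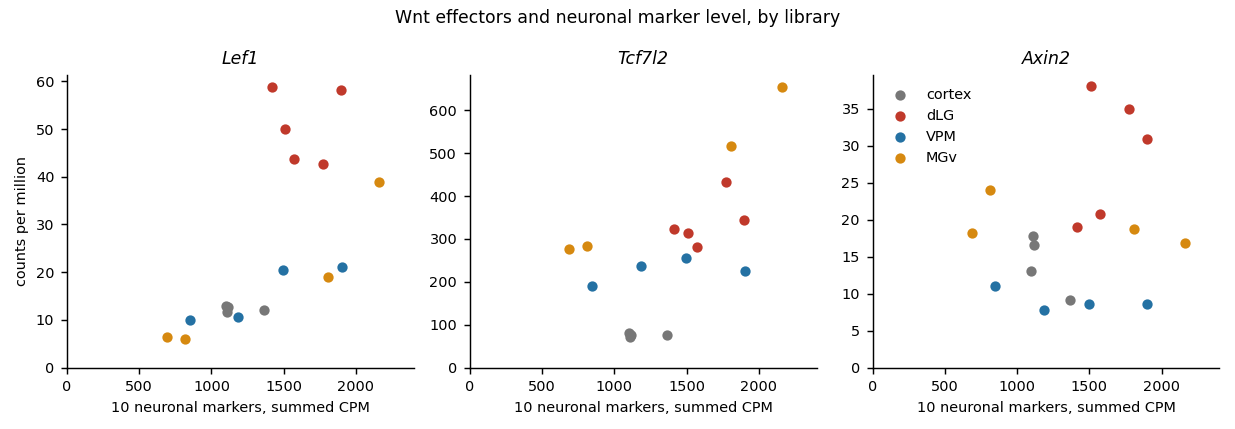
Level in CPM of *Lef1*, *Tcf7l2* and *Axin2* (vertical axes, each with its own scale from 0) against the summed CPM of 10 neuronal markers (horizontal axes), 1 point for each of the 17 libraries, coloured by group. In the MGv the libraries with 690 and 814 CPM of neuronal markers hold the lowest *Lef1* levels (6.503 and 5.90 CPM), and the 5 dLG libraries hold 42.6 CPM or more at marker sums of 1417 to 1897 CPM.

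Other cell types were checked in the same way, and their part in the regional results was not tested. Of the astrocyte markers, 3 of 8 were lower in the thalamus (*Aldoc*, *Slc1a2* and *Slc1a3*). Of the 6 endothelial markers tested 1 was lower, *Slco1c1*, which astrocytes also express, and 1 of 6 mural markers, *Pdgfrb*. The endothelial list summed to 848 to 907 CPM in the cortex and to 130.3 to 323.9 in the thalamus, with *Cdh5* at 0 in the MGv, and the mural list to 38.3 to 64.9 and 2.12 to 36.0 CPM. Most of the endothelial sum was *Slco1c1* (means of 868 CPM in the cortex and 198 in the thalamus). The other endothelial markers, except *Pecam1*, had higher means in the thalamus, at low levels (*Cldn5* 1.13 CPM in the cortex and 3.09 in the thalamus). The median log2FC of the 6 tested was 1.70. The 2 ependymal markers tested were both lower in the thalamus (sums of 3.33 to 79.5 CPM in the cortex and 1.15 to 7.20 in the thalamus, with *Tmem212* at 0 in the dLG and VPM). Of the meningeal markers 1 was higher and 1 lower (sums of 18.8 to 31.6 and 9.28 to 32.2 CPM, with *Dcn* at 0 in the cortex), and 0 of 6 microglial markers were called by edgeR (2 by DESeq2 and 2 at an unadjusted p under 0.05; sums of 10.7 to 19.5 against 6.92 to 100.8 CPM). The 1 choroid plexus marker tested, *Folr1*, was not called (sums of 0.130 to 2.701 against 0 to 5.44 CPM, with *Kl* at 0 in the cortex).

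Levels can be compared between genes after division by exonic length, as CPM per kilobase of exon. On that scale the frizzled receptors summed to 103 ± 11.4 in the cortex (SD, n = 4), 141 ± 11.9 in the dLG (n = 5), 120.1 ± 11.5 in the VPM (n = 4) and 139 ± 19.8 in the MGv (n = 4). *Fzd9* was the largest share of that sum in every group, with 28.7% ± 1.45 (SD) in the cortex, 46.4% ± 5.33 in the dLG, 54.1% ± 2.16 for VPM and 48.3% ± 2.13 for MGv. The second place differed. It was taken by *Fzd2* in the cortex (18.9% ± 2.48), by *Fzd10* in the dLG (32.0% ± 6.29) and VPM (23.6% ± 2.06), and in the MGv by *Fzd2* (13.8% ± 4.23) and *Fzd10* (12.3% ± 1.85), whose shares overlapped. *Fzd2* took 0.435% ± 0.300 of the sum in the dLG and 1.41% ± 0.342 in the VPM.

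The same sums were taken for the other families. The 7 ligands summed to 74.9 ± 11.3 CPM per kilobase in the cortex (SD, n = 4) and 81.6 ± 11.9 in the thalamus (n = 13), and *Wnt7a* and *Wnt7b* together made up most of it in every group. *Wnt3* took 1.24% ± 0.540 of the ligand sum in the cortex, 5.05% ± 1.57 in the MGv, 12.2% ± 0.825 in the VPM and 21.2% ± 3.03 in the dLG. The 7 secreted antagonists summed to 178 ± 6.95 CPM per kilobase in the cortex and 54.3 ± 16.7 in the thalamus, with no overlap (168 to 183 against 36.3 to 101). *Dkk3* alone lay at 117 ± 3.48 CPM per kilobase in the cortex and 19.5 ± 7.72 in the thalamus. Most of the difference between the sums was thus this gene, and the lack of overlap holds for the sum with *Dkk3* in it. *Dkk3* made up 65.9% ± 2.56 of that sum in the cortex, and *Sfrp2*, 5.71% ± 0.735 there, reached 53.9% ± 2.94 in the VPM. Of the TCF/LEF factors, *Tcf7l1* and *Tcf7l2* had near shares in the cortex (37.7% ± 1.63 and 34.8% ± 1.59), and *Tcf7l2* alone held 64.1% ± 3.07, 66.4% ± 4.03 and 70.9% ± 11.4 in the dLG, the VPM and the MGv.

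**Figure D3:**
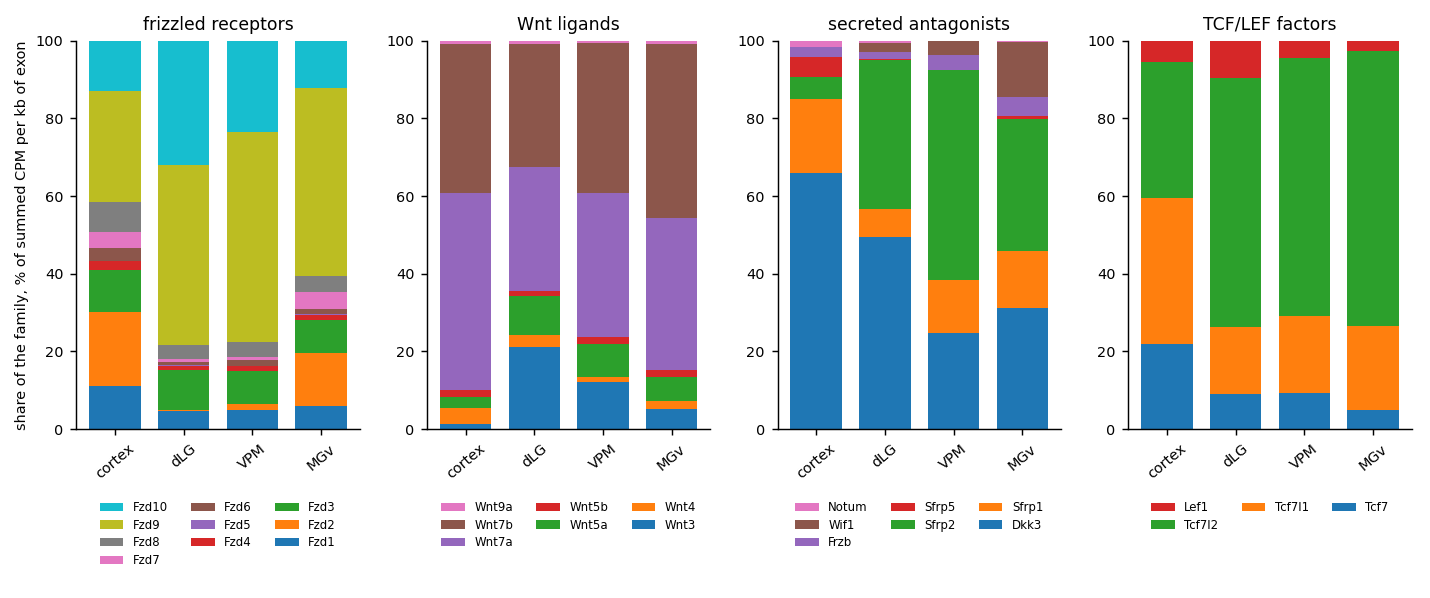
Mean share of each member in the summed CPM per kilobase of exon of its family, in percent, for the cortex (n = 4), dLG (n = 5) and the VPM and MGv (n = 4 each). *Dkk3* takes 65.9% of the antagonists in the cortex and 24.9% in the VPM, and *Tcf7l2* takes 34.8% of the TCF/LEF factors in the cortex and 64.1% to 70.9% in the nuclei.

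Each nucleus was then set against the average of both others. This fit used the 13 thalamic libraries and no cortex (17319 genes tested). The 3 comparisons share libraries, so a gene high in one nucleus is also part of the reference of the others. In the dLG, 8 Wnt genes were higher than that average, against 0.941% of all genes, and 2 were lower, against 0.214%. The 8 were the receptor *Fzd10*, the ligands *Wnt3*, *Wnt4* and *Wnt5a*, the antagonist *Dkk3*, the feedback inhibitors *Axin2* and *Nkd1* and the effector *Lef1*, and the 2 were *Fzd2* and *Sfrp1*. The median log2FC was 0.06 over the Wnt genes and -0.01 over all genes. Without dLG replicate b or MGv replicate d 4 genes were called higher, and without any one VPM library 5. Without dLG replicate c 7 were higher and 3 lower, and without MGv replicate c 7 and 2. Of the markers of other cells, 0 of 10 neuronal ones were called in the dLG by edgeR (0 by DESeq2, 2 at an unadjusted p under 0.05) and 0 of 6 microglial ones (3 by DESeq2, 5 at an unadjusted p under 0.05), with sums of microglial markers from 12.1 to 100.8 CPM. Their part in the result was not tested.

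The feedback genes *Nkd1*, *Axin2* and *Lef1* were all called higher in the dLG, and their promoters are shown for that reason. *Nkd1*, an inhibitor that acts on Dishevelled and is encoded at chr8:88521354-88594884, lay at 119, 167, 229.9, 165 and 138 CPM in the dLG, 56.9, 60.4, 61.2 and 62.4 in the VPM, 68.1, 81.6, 83.1 and 85.7 in the MGv and 81.5, 74.9, 83.2 and 78.3 in the cortex. The dLG was above all other groups, and the log2FC was 1.25 ± 0.13 (adjusted p = 0.000178). *Axin2* had a log2FC of 1.13 ± 0.19 (adjusted p = 0.00799), and its values in dLG replicates a and d, 20.7 and 18.9 CPM, overlapped those of the MGv. *Lef1* had a log2FC of 1.63 ± 0.37 (adjusted p = 0.0602) with no overlap, a call lost without any one of dLG replicates b and e, MGv replicate d and VPM replicates b and c (adjusted p 0.113 to 0.163) and with the number in the library name as a covariate (adjusted p = 0.170). The neuronal marker sums were 1417 to 1897 CPM in the dLG, 849 to 1902 in the VPM and 690 to 2162 in the MGv, and with them as a covariate the log2FC was 1.39 for *Lef1* (adjusted p = 0.00329), 1.20 for *Axin2* (adjusted p = 0.0163) and 1.27 for *Nkd1* (adjusted p = 0.000900). Of the 15 feedback targets 5 were higher in the dLG by edgeR (33.3%, against 0.941% of all genes) and 0 lower (against 0.214%). DESeq2 called 7 and 0, and 9 and 1 had an unadjusted p under 0.05. The 5 were *Axin2*, *Nkd1* and *Lef1*, and, outside the 51 genes, *Sp5* and *Ccnd1*. *Sp5* is a transcription factor (log2FC 2.05 ± 0.25, adjusted p = 0.000656), and *Ccnd1* encodes cyclin D1 (log2FC 0.55 ± 0.13, adjusted p = 0.0799). The median log2FC of the 15 targets was 0.55.

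RefSeq promoter windows (GRCm38.p6, 250 bases before to 50 after a transcript start) were at hand for 34 of the 51 genes, in 43 windows. Windows of the feedback genes of the dLG and of *Wnt3* are printed 5′ to 3′ with each CAAAG, or CTTTG on the other strand, in capitals. These letters are the core of the TCF/LEF motif TCAAAG. They are, on the forward strand, *Axin2* at chr11:108920099-108920398, *Nkd1* at chr8:88527383-88527682, *Lef1* at an upstream start of chr3:131110047-131110346 and at the internal starts of chr3:131112541-131112840 and chr3:131156044-131156343, and *Wnt3* at chr11:103773925-103774224. The window of *Nkd1* lies inside the gene as GENCODE places it, downstream of the gene's first base at position 88521354, so it too is that of an internal start. A further *Lef1* window, chr3:131110073-131110372, overlaps the upstream one, holds the same count of these letters and is not printed.
Axin2: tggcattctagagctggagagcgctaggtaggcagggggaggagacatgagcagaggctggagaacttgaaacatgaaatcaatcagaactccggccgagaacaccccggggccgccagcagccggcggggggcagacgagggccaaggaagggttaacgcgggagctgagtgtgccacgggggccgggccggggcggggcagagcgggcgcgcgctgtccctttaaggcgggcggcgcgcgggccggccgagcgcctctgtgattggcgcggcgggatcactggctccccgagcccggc
Nkd1, internal start: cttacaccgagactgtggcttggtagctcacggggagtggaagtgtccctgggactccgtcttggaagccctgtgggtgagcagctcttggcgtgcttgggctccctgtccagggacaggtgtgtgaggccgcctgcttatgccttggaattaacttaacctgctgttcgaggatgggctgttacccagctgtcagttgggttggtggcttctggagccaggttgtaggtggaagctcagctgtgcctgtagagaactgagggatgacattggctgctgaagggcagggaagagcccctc
Lef1, upstream start: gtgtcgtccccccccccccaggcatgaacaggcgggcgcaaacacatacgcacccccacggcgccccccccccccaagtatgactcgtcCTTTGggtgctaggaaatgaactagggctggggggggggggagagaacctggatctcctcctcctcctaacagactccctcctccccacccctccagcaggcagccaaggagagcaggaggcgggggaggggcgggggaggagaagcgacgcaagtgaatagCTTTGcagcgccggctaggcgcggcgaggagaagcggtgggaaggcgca
Lef1, nearer internal start: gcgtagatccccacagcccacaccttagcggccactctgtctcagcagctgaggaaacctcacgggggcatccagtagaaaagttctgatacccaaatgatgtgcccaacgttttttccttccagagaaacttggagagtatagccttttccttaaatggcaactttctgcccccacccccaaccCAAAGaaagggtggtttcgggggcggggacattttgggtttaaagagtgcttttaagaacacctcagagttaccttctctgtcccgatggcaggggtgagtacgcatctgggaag
Lef1, farther internal start: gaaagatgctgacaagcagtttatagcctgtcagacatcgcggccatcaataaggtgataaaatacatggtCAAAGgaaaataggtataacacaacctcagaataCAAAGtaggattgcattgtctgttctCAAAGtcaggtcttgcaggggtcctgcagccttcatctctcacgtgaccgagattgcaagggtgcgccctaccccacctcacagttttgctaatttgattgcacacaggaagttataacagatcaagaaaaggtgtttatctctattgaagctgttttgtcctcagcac
Wnt3: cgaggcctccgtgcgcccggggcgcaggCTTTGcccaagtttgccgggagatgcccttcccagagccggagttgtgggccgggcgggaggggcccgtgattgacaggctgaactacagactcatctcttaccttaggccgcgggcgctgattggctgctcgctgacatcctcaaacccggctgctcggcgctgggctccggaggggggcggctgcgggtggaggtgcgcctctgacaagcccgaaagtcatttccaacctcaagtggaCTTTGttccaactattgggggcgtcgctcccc

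The windows of *Axin2* and *Nkd1* held none of these letters, those of *Wnt3* and of the upstream start of *Lef1* held 2 each, that of the nearer internal start of *Lef1* held 1, and that of the farther internal start held 3, of which 2 were the full TCAAAG (either strand). CAAAG occurred in 53.9% of 32851 promoter windows of the genome and in 46.5% of the 43 Wnt windows, and TCAAAG, which contains it, in 16% and 14%. A match is a description of sequence and not a site of binding.

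Among the ligands and receptors of the dLG, *Wnt3* had a log2FC of 1.73 ± 0.17 (adjusted p = 0.000140) and *Wnt5a* one of 0.73 ± 0.16 (adjusted p = 0.0448), both without overlap with the other nuclei. The call of *Wnt5a* was lost without any one of dLG replicate b, MGv replicate d, VPM replicate a and VPM replicate d (adjusted p 0.101 to 0.142). With the number in the library name as a covariate the calls of *Wnt5a*, *Wnt4* and *Dkk3* in the dLG were lost as well (adjusted p 0.113, 0.202 and 0.144). *Wnt4* was also higher (log2FC 1.36 ± 0.32, adjusted p = 0.0763), as was *Fzd10* (log2FC 1.08 ± 0.14, adjusted p = 0.00107). *Wnt4* lost its call without any one of 10 libraries. *Dkk3* was higher (log2FC 0.75 ± 0.17, adjusted p = 0.0665), with MGv replicate c, at 103 CPM, inside the range of the dLG, and lost its call without any one of 8 libraries. *Fzd2* was lower in the dLG (log2FC -3.21 ± 0.40, adjusted p = 0.000656), although dLG replicate e reached 4.99 CPM, within the range of the VPM. *Sfrp1* was lower (log2FC -1.06 ± 0.19, adjusted p = 0.0144), a call lost with the library letter as a block (adjusted p = 0.110).

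**Figure D4:**
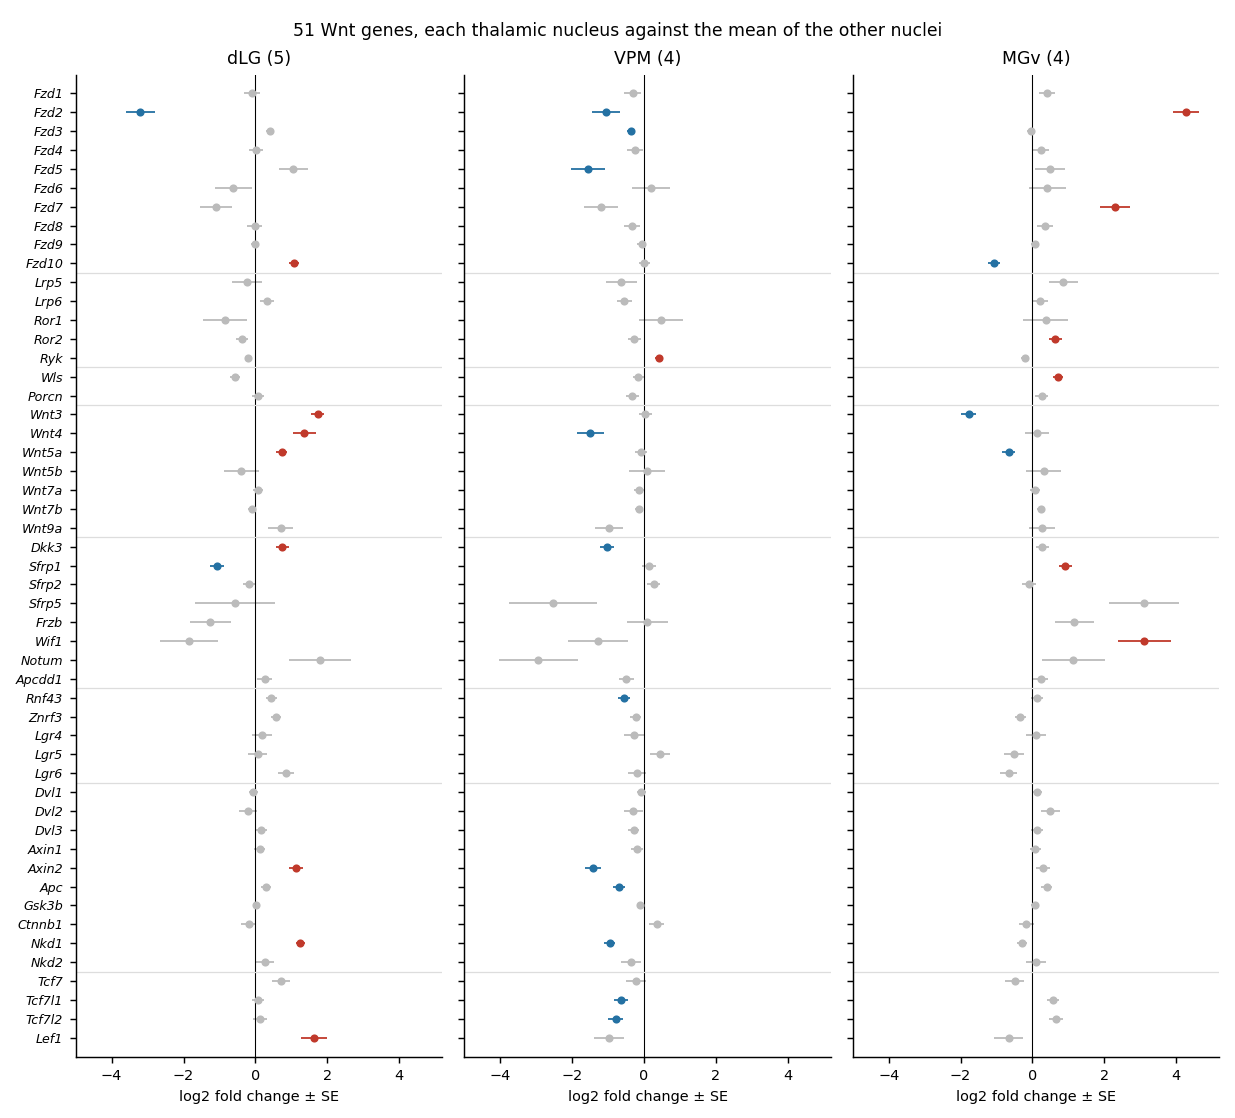
Log2 fold change with its SE of the 51 Wnt genes in the dLG (5 libraries), VPM (4) and MGv (4), each against the average of both others, in the same order of roles as for the regions. Red points were called higher (8, 1 and 6 genes), blue points lower (2, 11 and 3 genes) and grey points were not called.

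In the VPM the Wnt genes lay mostly on the lower side. There 11 were lower than the average of both other nuclei (21.6%, against 9.78% of all genes) and 1 was higher (1.96%, against 7.07%), with a median log2FC of -0.29 over the Wnt genes and -0.02 over all genes. The 11 were the receptors *Fzd2*, *Fzd3* and *Fzd5*, the ligand *Wnt4*, the antagonist *Dkk3*, the ligase *Rnf43*, the genes of the destruction complex and its feedback *Axin2*, *Apc* and *Nkd1*, and the effectors *Tcf7l1* and *Tcf7l2*. The co-receptor *Ryk* was the 1 gene higher. Of the 11, *Fzd2* was not the lowest of the nuclei in the VPM, since its mean there, 6.28 ± 2.06 CPM (SD, n = 4), lay above the 2.27 ± 1.63 of the dLG (n = 5) and below the 72.0 ± 32.0 of the MGv (n = 4). Leaving out VPM replicates a, c and d in turn left 5, 7 and 6 genes called lower, and leaving out dLG replicate c or MGv replicate c left 13 and 12. The calls of *Fzd2*, *Fzd3*, *Fzd5*, *Rnf43*, *Tcf7l1* and *Wnt4* were each lost without at least 1 library, VPM replicate a among them, and their log2FC ran from -1.55 for *Fzd5* to -0.37 for *Fzd3*.

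Among the nuclei *Axin2* and *Nkd1* were lowest in the VPM, without overlap. *Axin2* lay at 7.80 to 11.1 CPM there and at 16.8 CPM or more in the other nuclei (log2FC -1.42 ± 0.22, adjusted p = 0.00282), and *Nkd1* lay at 56.9 to 62.4 CPM against 68.1 or more (log2FC -0.96 ± 0.15, adjusted p = 0.00282). Both genes were called in the VPM under every alternative that was run. *Dkk3* was lower without overlap (log2FC -1.02 ± 0.19, adjusted p = 0.00802), and so was *Tcf7l2* (log2FC -0.79 ± 0.21, adjusted p = 0.0312). *Apc*, the large scaffold of the destruction complex, had a log2FC of -0.69 ± 0.17 (adjusted p = 0.0206). *Ryk*, at 152 to 161 CPM in the VPM and 102 to 139.6 in the dLG and 103 to 131 in the MGv, had a log2FC of 0.42 ± 0.11 (adjusted p = 0.0259). *Lef1* was not called by edgeR (log2FC -0.98 ± 0.41, adjusted p = 0.144). It was called lower by 5 of 22 alternatives, among them DESeq2 (adjusted p = 0.0543) and the neuronal marker level as a covariate (log2FC -0.71, adjusted p = 0.0480). Of the 15 feedback targets 4 were lower in the VPM (*Axin2*, *Nkd1*, *Rnf43* and *Sp5*) and 1 was higher (*Myc*). These are 26.7% and 6.67%, against 9.78% and 7.07% of all genes.

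Cell type markers also differed in the VPM. All 6 microglial markers were lower (sums of 6.92 to 11.6 CPM in the VPM against 12.1 to 100.8 in the dLG and 15.9 to 58.2 in the MGv), and none was at 0. Of the 8 oligodendrocyte markers 3 were higher and 2 lower, with sums of 6953 to 11270 CPM in the VPM, 7300.2 to 8994 in the dLG and 6149 to 8008 in the MGv and none at 0. Of the 8 astrocyte markers 1 was higher and 2 lower, with sums of 4943 to 6783 CPM in the VPM, 5618 to 6971 in the dLG and 5293 to 12474 in the MGv. A single marker each of the neuronal (*Nefm*) and endothelial (*Slco1c1*) lists was higher, and 1 meningeal (*Dcn*) and 1 choroid plexus marker (*Folr1*) were lower. Their part in the lower Wnt genes was not tested.

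In the MGv, 6 Wnt genes were higher than the average of both other nuclei, against 1.57% of all genes, and 3 were lower, against 0.756%. The 6 were the receptors *Fzd2* and *Fzd7*, the co-receptor *Ror2*, the carrier *Wls* and the antagonists *Sfrp1* and *Wif1*, and the 3 were *Fzd10*, *Wnt3* and *Wnt5a*. The median log2FC was 0.24 over the Wnt genes and 0.02 over all genes. *Fzd2* differed most, with 50.5 to 119.5 CPM in the MGv and at most 9.21 CPM in the other nuclei (log2FC 4.27 ± 0.35, adjusted p = 2.60e-05), and *Fzd7* lay at 15.2 CPM or more against at most 10.6 (log2FC 2.29 ± 0.42, adjusted p = 0.0112). Both receptors were called under every alternative that was run.

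Of the other genes higher in the MGv, *Wls* had a log2FC of 0.71 ± 0.14 (adjusted p = 0.0195; 0.126 without MGv replicate c, where the log2FC was 0.54) and *Sfrp1* one of 0.91 ± 0.19 (adjusted p = 0.0234; 0.135 without MGv replicate b). *Ror2* was called at the threshold (log2FC 0.64 ± 0.17, adjusted p = 0.0992) and lost the call without any one of 9 libraries. *Wif1* rested on MGv replicate c, with a log2FC of 3.11 ± 0.74 (adjusted p = 0.0545) that was 1.44 without it (adjusted p = 0.486). *Wnt3* was lower without overlap (log2FC -1.77 ± 0.21, adjusted p = 0.000280), as was *Fzd10* (log2FC -1.08 ± 0.16, adjusted p = 0.00289), and *Wnt5a* was lower with overlap (log2FC -0.66 ± 0.17, adjusted p = 0.0801), a call lost without any one of 8 libraries. *Tcf7l2* was not called in the MGv by edgeR (log2FC 0.66 ± 0.19, adjusted p = 0.134). It was called higher by 7 of 22 alternatives, among them DESeq2 (adjusted p = 0.0420) and the neuronal marker level as a covariate (log2FC 0.72, adjusted p = 0.00759). *Lef1* was not called (log2FC -0.66 ± 0.41, adjusted p = 0.541), and was called lower by 1 of 22 alternatives, that without MGv replicate a (log2FC -1.40, adjusted p = 0.0783). Without MGv replicate c, 4 Wnt genes were called higher and 3 lower, and without dLG replicate c 8 and 3. Among the 15 feedback targets 1 was higher in the MGv (6.67%, against 1.57% of all genes) and 2 were lower (13.3%, against 0.756%). Of the cell type markers, *Gfap* and *Folr1* were higher in the MGv and *Nefm* and *Slco1c1* lower, and their part in these results was not tested.

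**Figure D5:**
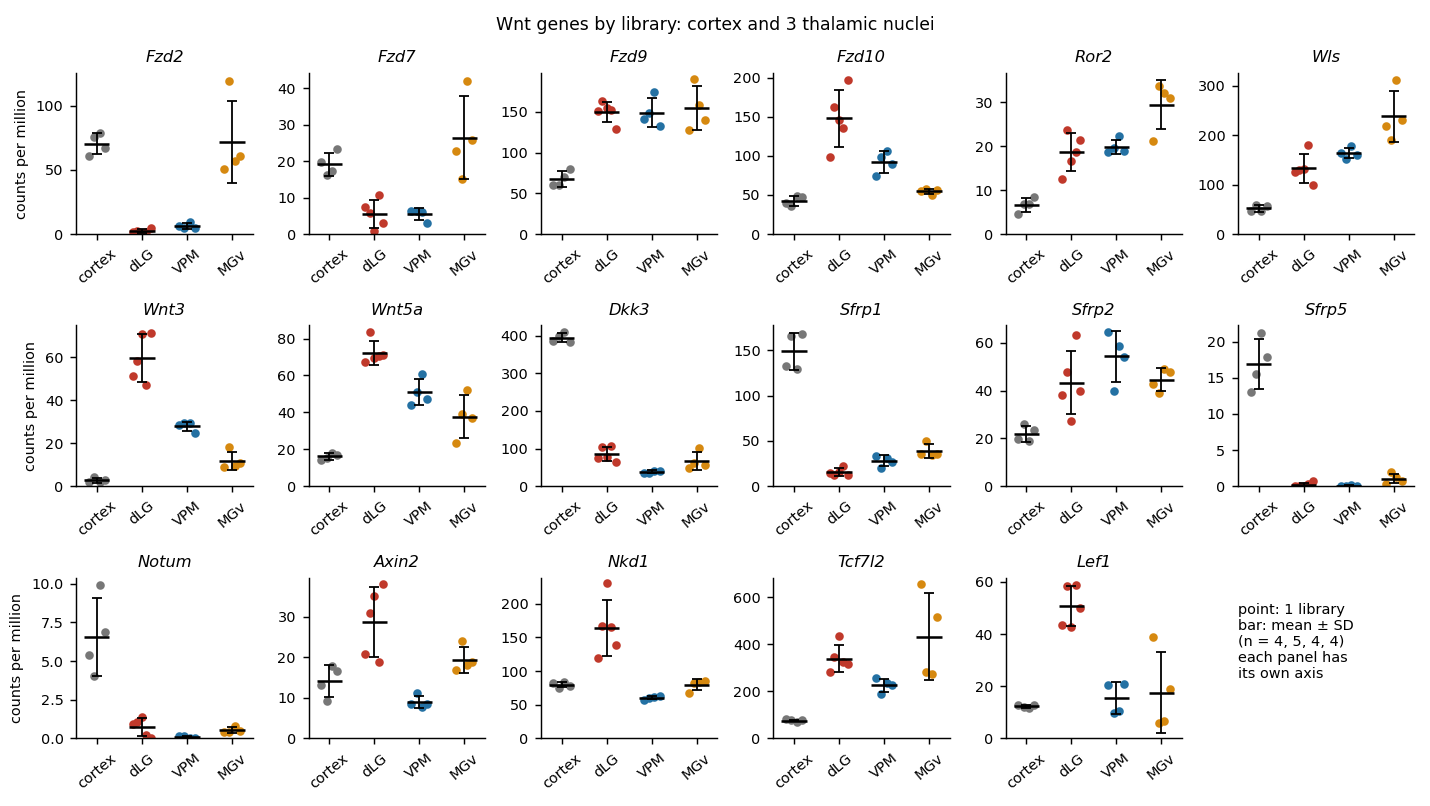
Levels in CPM of 17 Wnt genes in each of the 17 libraries (points), by group, with the mean and SD of each group (bars; n = 4 for the cortex, 5 for the dLG, 4 for the VPM and 4 for the MGv) and a separate axis from 0 for each gene. *Dkk3*, *Sfrp1*, *Sfrp5* and *Notum* are high in the cortex, *Fzd2* and *Fzd7* are high in the cortex and MGv and low in the dLG and VPM, and *Wnt3* steps down from the dLG to the VPM, the MGv and the cortex.

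The wider pathway was counted from lists of other ligands and secreted modulators, membrane partners, cytoplasmic components, nuclear partners and planar polarity genes. Of their 72 genes in the counts, 64 passed the filter on low counts, while all 51 Wnt genes did. Between regions 7 were higher in the thalamus and 7 lower (10.9% each, against 5.45% and 5.93% of all genes). The lowest adjusted p belonged to *Tle1*, a co-repressor of TCF proteins (log2FC -0.85 ± 0.13, adjusted p = 0.000205), *Gpc4*, a glypican (log2FC -1.19 ± 0.19, adjusted p = 0.000269) and *Ctnnbip1*, an inhibitor of β-catenin (log2FC -0.85 ± 0.14, adjusted p = 0.000430). In the dLG 1 was higher (1.56%, against 0.941%) and 0 lower by edgeR (7 and 0 by DESeq2, 15 and 2 at an unadjusted p under 0.05). That gene was *Wnt9b*, a ligand gene on the reverse strand 24328 bases from *Wnt3*, at chr11:103727364-103749821, with no other protein-coding gene of the count files between. *Wnt9b* lay at 9.75 ± 2.304 CPM in the dLG (SD, n = 5), 4.26 ± 2.07 in the VPM (n = 4) and 0.805 ± 0.869 in the MGv (n = 4), with no count in any cortical library, so that the dLG mean was at least 78.8-fold higher than the cortex against a floor of 3 counts per library. Its log2FC in the dLG was 2.41 ± 0.49 (adjusted p = 0.0332), and the order of its group means was that of *Wnt3*.

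In the VPM 16 of the 64 wider genes were lower (25%, against 9.78% of all genes) and 3 higher (4.69%, against 7.07%). The lowest adjusted p belonged to *Celsr1* and *Celsr2*, atypical cadherins of planar polarity (log2FC -3.40 ± 0.45, adjusted p = 0.00102, and -1.84 ± 0.37, adjusted p = 0.0102), and to *Macf1*, a cytoskeletal linker (log2FC -1.04 ± 0.20, adjusted p = 0.00864). By list the lower genes were 6 of 11 planar polarity genes, 5 of 14 nuclear partners, 3 of 18 cytoplasmic components, 1 of 9 membrane partners and 1 of 12 ligands and modulators. In the MGv 2 were higher (3.125%, against 1.57% of all genes) and 1 lower (1.56%, against 0.756%): *Celsr1* (log2FC 2.297 ± 0.35, adjusted p = 0.00321) and *Macf1* (log2FC 0.80 ± 0.19, adjusted p = 0.0465) were higher, and *Wnt9b* was lower (log2FC -2.97 ± 0.62, adjusted p = 0.0271).

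Of the 51 genes, 29 were called in at least 1 of the 4 comparisons (56.9%, against 25.7% of all genes). By region 18 were called (35.3%, against 11.4%) and by nucleus 21 (41.2%, against 17.6%), from fits that share the thalamic libraries. The 51 genes were chosen with earlier results known, so these shares are descriptive. The 22 called in none by edgeR were *Fzd6*, *Lrp5*, *Lrp6*, *Ror1*, *Porcn*, *Wnt5b*, *Wnt7b*, *Wnt9a*, *Frzb*, *Apcdd1*, *Znrf3*, *Lgr4*, *Lgr5*, *Lgr6*, *Dvl1*, *Dvl2*, *Dvl3*, *Axin1*, *Gsk3b*, *Ctnnb1*, *Nkd2* and *Tcf7*. The library names begin with 1 of 3 numbers, which divide the libraries into sets of 10, 6 and 1 (dLG replicate c). Within the set of 10 the direction of the full comparison was found for 18 of 18 calls by region, 10 of 10 in the dLG, 12 of 12 in the VPM and 9 of 9 in the MGv. Within the set of 6, which held no MGv library, it was found for 18 of 18 by region, 10 of 10 in the dLG and 11 of 12 in the VPM, where *Fzd2* was the exception. The calls were made with these same libraries, so the directions are not independent of them. Without the MGv, the dLG and VPM comparisons in the set of 6 are a single contrast with opposite signs (*Axin2* 1.42 and -1.42). The set of 1 gives no value.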

How the data were processed

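Astrocytes of 4 cortical and 13 thalamic pools were sequenced as 50-base single reads from libraries made with a SMARTer Ultra Low kit, which does not mark strand. The deposited files hold raw counts per gene; the authors trimmed adapters, mapped reads to GRCm38.p6 (mm10) with STAR (2.7.0d), processed alignments with SAMtools (1.9) and counted them with featureCounts of Subread (1.6.4) on Ensembl gene models. Of 26556 gene identifiers, 26548 were matched to symbols, coordinates and exonic lengths of GENCODE M21.

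Counts were fitted with edgeR (4.0.16) in R (4.3.3), with robust quasi-likelihood, TMM scaling and filterByExpr, in a fit of regions and a fit of nuclei. p-values were adjusted by the Benjamini-Hochberg method over all genes tested, with a threshold of 0.1, and SE was derived from the fold change and the F statistic. CPM are scaled by TMM factors. The members and lists were chosen with earlier results of these data known. Values per library are given for *Tcf7l2*, *Lef1*, *Axin2* and the 16 members of lowest adjusted p. Of the wider lists only counts and the 3 genes of lowest p are given for each comparison. Nothing in the labels says that letters mark separate litters, so p-values measure the spread between pools. Alternatives were DESeq2 (1.42.0), its size factors, other filters and thresholds, covariates, a fit of 4 groups and leaving out each library. Scripts were tested on simulated counts with known fold changes in 1 region or nucleus and no other differences between groups. That run checked the code and not the calls made here.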

Additional observations from a re-analysis of the deposited data

Results flagged for a closer look

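Within the groups of the 17 genes whose values are given by library, 5 single libraries lay far from the rest of their group by Dixon's test, where chance gives about 1 in 20 groups (3.3 of the 66 groups examined). *Fzd2* lay at 119.5 CPM in MGv replicate b and *Sfrp1* at 50.2 CPM in the same library, both above the other MGv libraries. *Wnt5a* lay at 83.6 CPM in dLG replicate b, above the other dLG libraries. *Notum* lay at 0.807 CPM in MGv replicate c, above the others of its group, at a level of few counts. *Fzd7* lay at 3.05 CPM in VPM replicate d, below the others of its group.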

How the results depend on the processing

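Of 49 called differences of single Wnt genes, 28 stayed called in the same direction under every alternative that tested the gene. The other 21 lost the call under at least 1, and none of these changed sign. Among the 28, *Sfrp5*, *Notum* and *Fzd5* by region were tested in 25 of 26 alternatives, since they lacked 10 counts in some libraries. Between thalamus and cortex, the count of genes called lower moved from 8 to 5 with at least 10 counts in every library, to 5 at an adjusted p under 0.05, to 13 with the number in the library name as a covariate and to 13 in a fit of 4 groups. The filter of 10 counts tested 43 of the 51 genes. *Sfrp5* and *Notum* were removed by it and not tested, while *Wnt7a* was tested and lost its call. The count called higher in the dLG moved from 8 to 5 at an adjusted p under 0.05 and to 4 with that number as a covariate, where *Lef1*, *Wnt5a*, *Wnt4* and *Dkk3* were lost. Without 1 library at a time the counts ran, for genes higher and lower, from 9 to 11 and 4 to 11 by region, 4 to 10 and 2 to 3 in the dLG, 1 to 1 and 5 to 13 in the VPM, and 4 to 8 and 2 to 3 in the MGv. Pairing of the libraries by letter was weak. Of 24 pairs with the same letter, 12 correlated above 0.1 in their deviations from the group means. The median was 0.08, against -0.05 for pairs with other letters, and 6 of 17 libraries correlated best with one of their own letter. With the replicate block the genes called higher and lower were 9 and 8 by region, 8 and 1 in the dLG (*Sfrp1* was lost), 1 and 12 in the VPM and 6 and 3 in the MGv. The log2FC of *Tcf7l2* in the dLG, not called, changed sign to -0.058 with the neuronal marker level as a covariate, an alternative chosen after the values were seen. The causes were not tested. Over all genes, DESeq2 called 398 higher and 127 lower in the dLG where edgeR called 163 and 37, and 547 and 339 in the MGv against 272 and 131; the replicate block gave 97 and 19 in the dLG and 419 and 253 in the MGv. *Sfrp5*, *Notum*, *Fzd5* and *Wif1* lay within 5 counts of 0 in some libraries, as did *Frzb*, *Ror1* and *Fzd6* in dLG replicate c, where fewer genes were detected at a usual total, and a gene at or under 3 counts was not detectable rather than absent.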
